A study of Homo sapiens with 9 samples.

Results

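The transcripts of the AP-1 subunits and of 3 further immediate early genes were followed in PANC-1 cells, an established human pancreatic cancer cell line, after knockdown of the deacetylase SIRT6 or of the histone H3 lysine 4 demethylase KDM5C. The 10 genes were chosen by name: FOS, FOSB, FOSL1 and FOSL2 of the FOS family, JUN, JUNB and JUND of the JUN family, and EGR1, IER2 and ZFP36. All 10 were among the 36753 genes in the deposited tables, and 8 of them were among the 16135 genes with at least 1 FPKM (fragments per kilobase of gene, scaled to library size) in at least 3 of the 9 libraries, which were tested. FOS and FOSB stayed under 1 FPKM in every library and were not in that test.

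The 9 mRNA libraries came from 3 groups of 3, each 48 h after transfection. One group carried a SIRT6 knockdown (siSIRT6), one a KDM5C knockdown (siKDM5C), and the last was the transfected control, which the table headers call siNC. Nothing in the labels says that replicates grew as separate cultures, and the spread behind each p-value may then be technical. The labels give neither the sequences nor the number of siRNAs per gene, so loss of a target and other effects of its siRNA cannot be told apart. Serum and growth factors in the medium, to which immediate early genes respond, are not described in the labels.

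Immediate early genes are transcribed within minutes of a growth factor, stress or cytokine signal, without new protein synthesis, and most of their mRNAs are short-lived. AP-1 is a dimer of basic leucine zipper proteins, in which a JUN protein pairs with a FOS protein, another JUN protein or an ATF or MAF partner. FOS proteins cannot pair with each other, and FOSL1 is the FOS protein that RAS and ERK signalling sustains in many carcinoma cells. EGR1 is a zinc finger transcription factor induced through serum response elements, and ZFP36 (tristetraprolin) binds AU-rich elements in mRNAs and speeds their decay.

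The sequences shown first are the promoters of the 3 genes with the largest fall after siSIRT6 (EGR1) or with a rise after siKDM5C within the JUN family (JUN and JUND), from RefSeq on GRCh38.p14, 5′ to 3′ on the gene's own strand, from 250 bases before to 50 bases after the start. Capitals mark matches, on either strand, to the AP-1 site TGACTCA, the cAMP response element TGACGTCA, the JUN-type site TGACATCA, the cAMP response element core TGACG (read CGTCA on the other strand, and contained in TGACGTCA), and the CArG box, to which serum response factor binds.
EGR1, chr5:138465229-138465528, plus strand: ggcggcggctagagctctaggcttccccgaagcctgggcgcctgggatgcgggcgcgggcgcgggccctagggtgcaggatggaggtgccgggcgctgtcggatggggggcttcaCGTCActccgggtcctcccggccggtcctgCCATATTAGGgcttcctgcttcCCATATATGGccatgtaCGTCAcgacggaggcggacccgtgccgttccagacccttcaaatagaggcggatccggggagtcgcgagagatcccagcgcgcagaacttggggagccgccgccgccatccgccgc
JUN, chr1:58783998-58784297, minus strand: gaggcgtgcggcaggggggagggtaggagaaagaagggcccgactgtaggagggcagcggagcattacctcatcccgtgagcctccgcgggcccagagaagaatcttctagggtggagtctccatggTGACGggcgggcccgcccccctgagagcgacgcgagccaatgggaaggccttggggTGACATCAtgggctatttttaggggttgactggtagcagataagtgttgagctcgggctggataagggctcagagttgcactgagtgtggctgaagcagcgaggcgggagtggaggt
JUND, chr19:18281573-18281872, minus strand: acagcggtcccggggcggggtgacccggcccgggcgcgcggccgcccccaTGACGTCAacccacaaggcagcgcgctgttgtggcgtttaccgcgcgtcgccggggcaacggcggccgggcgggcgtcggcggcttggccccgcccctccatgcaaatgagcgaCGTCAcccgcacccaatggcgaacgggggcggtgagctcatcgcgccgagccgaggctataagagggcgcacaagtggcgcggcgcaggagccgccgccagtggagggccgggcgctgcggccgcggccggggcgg

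With the start site counted as base 0, the EGR1 window held CArG boxes at -105 to -96 and at -83 to -74, and cores beginning at -135 and -66. A CArG box was found in 1.29% of all 35116 promoters of this length in the table. The JUN window held TGACATCA at -67 to -60, a site found in 2.61% of promoters, and a core at -123. The JUND window held TGACGTCA at -200 to -193, found in 1.85% of promoters, and a further core at -86. FOSL2 had the AP-1 site TGACTCA just after its start, at 4 to 10, as did 4.95% of promoters anywhere in the window. The core, by itself or within TGACGTCA, was in 24.6% of promoters, and among the members it was also found in FOS, FOSB, FOSL2, JUNB and IER2. ZFP36 held none of these letters in its window, and FOSL1 is named only. These matches describe the sequence and are not evidence of binding.

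The libraries held 18201415 to 26910446 reads, as recovered from the steps in the FPKM values. SIRT6 was at 0.795, 0.509 and 0.487 FPKM in siSIRT6 libraries and 6.20, 5.17 and 7.17 FPKM in control libraries, and KDM5C was at 3.65, 3.31 and 3.89 FPKM in siKDM5C libraries and 18.0, 18.4 and 18.8 FPKM in control libraries, so both targets went with the labels. The epithelial markers KRT8, KRT18, KRT19, KRT7 and EPCAM summed to 1398 to 1513 FPKM in siSIRT6, 695 to 856 FPKM in siKDM5C and 1091 to 1143 FPKM in control libraries, with KRT7 and EPCAM low throughout. All 5 endothelial and all 5 fibroblast markers were under 1 FPKM in every library, and of 4 leukocyte markers only CD14 passed 1 FPKM. In such bulk RNA, fewer cells of a kind and less RNA per cell cannot be told apart. Mitochondrially encoded genes took 6.53 to 6.91% of reads in siSIRT6, 5.67 to 6.61% in siKDM5C and 8.10 to 9.81% in control libraries; their part in the results was not tested beyond the rescaling given with them.

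The members did not move as a block. After siSIRT6, 5 of the 8 tested members fell (FOSL1, FOSL2, JUNB, EGR1 and ZFP36), 1 rose (IER2) and 2 did not pass the test (JUN and JUND), in limma fits to log2(FPKM + 1) at a Benjamini-Hochberg adjusted p under 0.05. Of all tested genes 50.8% were called in that comparison, 26.9% lower and 23.9% higher. After siKDM5C, 3 members rose (JUN, JUND and IER2), 1 fell (JUNB) and 4 did not pass, where 51.5% of all tested genes were called, 25.6% higher and 25.9% lower. The 8 members' share called after siKDM5C, 50.0%, was thus near the background. The median difference of the 8 was -0.29 after siSIRT6, beside -0.05 for all tested genes, and 0.05 after siKDM5C, beside -0.02. Both comparisons use the same 3 control libraries.

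**Figure D1:**
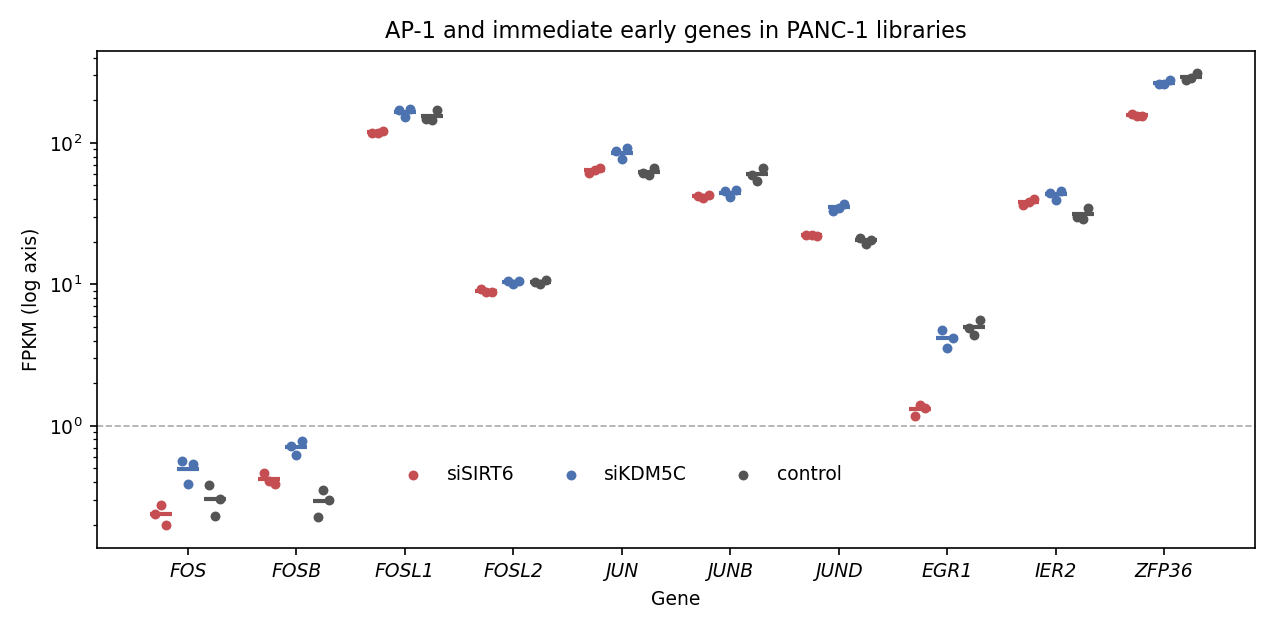
FPKM of the 10 genes (log axis) in each library, with points for the 3 siSIRT6, 3 siKDM5C and 3 control libraries from left to right within a gene, bars for group means and a dashed line at 1 FPKM. ZFP36 and FOSL1 lie above 100 FPKM in every library, FOS and FOSB lie below the line in every library, and EGR1 is at 1.18 to 1.40 FPKM in siSIRT6 against 4.41 to 5.57 FPKM in control libraries.

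FPKM is a value per gene length, so levels can be set side by side between genes. In control libraries the order was ZFP36 at 291 FPKM, FOSL1 at 155, JUN at 62.6, JUNB at 59.9, IER2 at 31.2, JUND at 20.4, FOSL2 at 10.4, EGR1 at 4.96, FOS at 0.304 and FOSB at 0.292 FPKM (means of 3). The ranges of JUN and JUNB overlapped, as did those of FOS and FOSB, while the other neighbours in the order were apart. ZFP36 ranked 117 of the 16135 tested genes in control libraries and FOSL1 ranked 240, whereas EGR1 ranked 8835. In siSIRT6 libraries JUN lay above JUNB and FOSB above FOS without overlap. Within the siKDM5C group, replicate 2 was the lowest library for 9 of the 10 members, JUND being the exception, and leaving it out changed no member's call. Control replicate 2 was the lowest of its group for 8 of the 10, and without it IER2 after siSIRT6 was the only tested member to lose its call. In siKDM5C libraries FOSB also lay above FOS, and the ranges of JUNB and IER2 overlapped.

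FOSL1 carried almost all FOS family transcript. Its level was 118, 117 and 121 FPKM in siSIRT6 libraries, 170, 153 and 174 FPKM in siKDM5C libraries and 148, 146 and 171 FPKM in control libraries. All 3 siSIRT6 libraries were below every other library, while the siKDM5C and control ranges overlapped. FOSL1 (ENSG00000175592, chr11:65892049-65900573) encodes FRA1. It fell after siSIRT6 by 0.38 on the log2(FPKM + 1) scale (SE 0.08, adjusted p = 0.00319, limma). Its difference after siKDM5C was 0.10 (adjusted p = 0.319, limma), with a 95% interval of -0.08 to 0.27.

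FOSL2 (ENSG00000075426, chr2:28392448-28417312), which encodes FRA2, was at 9.20, 8.77 and 8.77 FPKM in siSIRT6, 10.62, 10.05 and 10.57 FPKM in siKDM5C and 10.36, 10.01 and 10.79 FPKM in control libraries. The siSIRT6 libraries were again below all others. The fall was small, 0.20 on the log2 scale (SE 0.05, adjusted p = 0.00877, limma), leaving 85.8% of the control mean. The difference after siKDM5C was 0.00, with a 95% interval of -0.11 to 0.11 (adjusted p = 0.957, limma).

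The classical induced members FOS and FOSB were the lowest of the 10 members in FPKM in every group, with 14 to 100 reads a library. FOS (ENSG00000170345, chr14:75278774-75282230) had 15, 17 and 17 reads in siSIRT6, 34, 23 and 40 reads in siKDM5C and 22, 14 and 18 reads in control libraries. At 0.239, 0.276 and 0.198 FPKM in siSIRT6, 0.559, 0.390 and 0.540 FPKM in siKDM5C and 0.379, 0.230 and 0.303 FPKM in control libraries, siKDM5C was above control without overlap, and the siSIRT6 and control ranges overlapped. FOSB (ENSG00000125740, chr19:45467995-45475179) had 51, 44 and 58 reads in siSIRT6, 76, 64 and 100 in siKDM5C and 23, 37 and 31 in control libraries. The 3 groups did not overlap in FOSB FPKM, with 0.388 to 0.467 in siSIRT6, 0.623 to 0.774 in siKDM5C and 0.228 to 0.349 in control libraries.

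Fits that include these low genes were read for FOS and FOSB. In limma-voom on the recovered reads of 19461 genes, FOSB was higher after siKDM5C by 1.28 on the log2 scale (SE 0.20, adjusted p = 0.000163), and FOS by 0.72 (SE 0.26, adjusted p = 0.0371). After siSIRT6 the same fit gave 0.52 for FOSB (adjusted p = 0.0538) and -0.35 for FOS (adjusted p = 0.339), which did not pass. In limma on log2(FPKM + 1) with no filter, FOSB passed after siKDM5C (adjusted p = 0.00172) and FOS did not (adjusted p = 0.0559). FOS in siKDM5C cells is therefore a call that depends on the fit.

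The FOS family sum was 128 ± 1.73 FPKM in siSIRT6, 177 ± 11.9 FPKM in siKDM5C and 166 ± 14.3 FPKM in control libraries (SD, n = 3 each). FOSL1 made up 92.5% of it in siSIRT6, 93.4% in siKDM5C and 93.4% in control libraries. FOSL2 made up 6.96%, 5.89% and 6.28% in siSIRT6, siKDM5C and control libraries. FOS and FOSB together with their changes thus concern under 1% of the family's transcript in any library.

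The JUN family moved in a different way, with JUNB lower after both knockdowns. JUNB (ENSG00000171223, chr19:12791496-12793315), a weaker activator than JUN at many AP-1 sites, was at 42.4, 40.5 and 43.1 FPKM in siSIRT6, 45.6, 41.3 and 46.5 FPKM in siKDM5C and 59.0, 54.1 and 66.7 FPKM in control libraries. Every knockdown library was below every control library, and the knockdown groups overlapped. JUNB fell by 0.50 (SE 0.08, adjusted p = 0.00109, limma) after siSIRT6 and by 0.42 (SE 0.08, adjusted p = 0.00266, limma) after siKDM5C. The exons of HOOK2 on the opposite strand overlap 259 bases, 14.2% of JUNB's exons. HOOK2 was at 5.49 to 5.74 FPKM in siSIRT6, 4.81 to 5.78 FPKM in siKDM5C and 6.06 to 6.92 FPKM in control libraries. Its part in the JUNB values was not tested.

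JUN (ENSG00000177606, chr1:58780788-58784327), the strongest transactivator of the family, was at 61.5, 64.2 and 66.9 FPKM in siSIRT6, 87.1, 77.3 and 91.8 FPKM in siKDM5C and 61.6, 59.4 and 66.9 FPKM in control libraries. The siKDM5C libraries stood above all others, and the siSIRT6 and control ranges overlapped almost entirely. JUN rose by 0.44 after siKDM5C (SE 0.08, adjusted p = 0.00147, limma). After siSIRT6 its difference was 0.04, with a 95% interval of -0.14 to 0.21 (adjusted p = 0.717, limma).

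JUND (ENSG00000130522, chr19:18279760-18281622), the member usually expressed without induction, was at 22.4, 22.4 and 21.9 FPKM in siSIRT6, 33.0, 34.9 and 37.1 FPKM in siKDM5C and 21.2, 19.4 and 20.7 FPKM in control libraries. The 3 groups did not overlap, with siKDM5C far above and siSIRT6 just above control. JUND rose by 0.75 after siKDM5C (SE 0.06, adjusted p = 1.71e-05, limma), to 171% of the control mean, and among the 8 tested members this was the largest change in that comparison. The difference after siSIRT6 was 0.12, with a 95% interval of -0.01 to 0.25 (adjusted p = 0.114, limma), and it passed under median-of-ratios scaling (0.16, adjusted p = 0.0452).

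The JUN family's makeup differed between groups while its sum changed less. The sum was 128 ± 3.04 FPKM in siSIRT6, 165 ± 11.0 FPKM in siKDM5C and 143 ± 10.8 FPKM in control libraries (SD, n = 3 each). JUNB made up 32.7 ± 0.853% of it in siSIRT6, 27.0 ± 0.499% in siKDM5C and 41.9 ± 1.26% in control libraries, and no group overlapped another. JUN made up 50.0 ± 1.10%, 51.8 ± 1.21% and 43.8 ± 0.749% in siSIRT6, siKDM5C and control libraries, and JUND made up 17.3 ± 0.614%, 21.3 ± 1.40% and 14.3 ± 0.785% in the same order. These shares are parts of the same sum, so a lower JUNB share raises the others even where their own FPKM is unchanged. JUN itself was at 64.2 ± 2.68 FPKM in siSIRT6 and 62.6 ± 3.84 FPKM in control libraries. Neither JUN nor JUND passed the main test after siSIRT6. With 3 libraries against 3, an exact two-sided permutation test cannot go below p = 0.10, and the shares are given with no test.

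**Figure D2:**
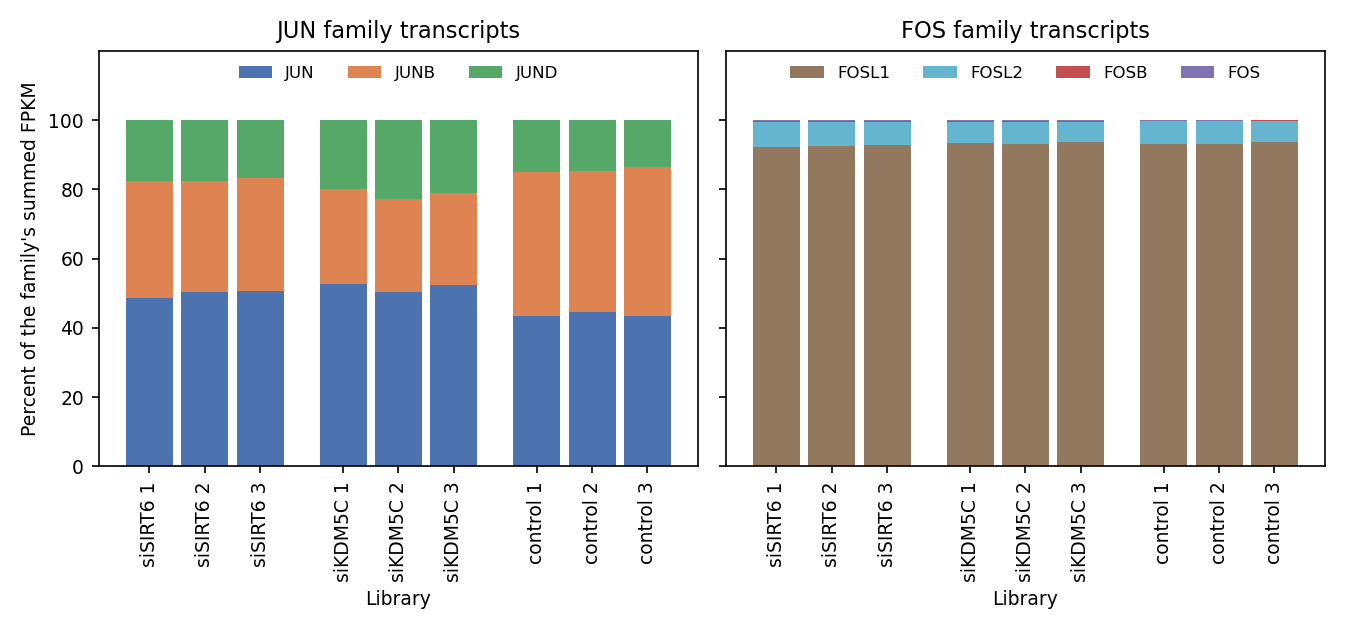
Share of each gene in the summed FPKM of its family (percent, bars starting at 0), for every siSIRT6, siKDM5C and control library from left to right. JUNB takes 31.9 to 33.6% of the JUN family in siSIRT6, 26.5 to 27.5% in siKDM5C and 40.7 to 43.2% in control libraries, and FOSL1 takes over 92% of the FOS family in every library.

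The summed FOS family over the summed JUN family gave a ratio of 0.997 ± 0.0133 in siSIRT6, 1.08 ± 0.0204 in siKDM5C and 1.16 ± 0.0338 in control libraries (SD, n = 3 each). For the most abundant pair, FOSL1 over JUN was 1.85 ± 0.0597 in siSIRT6, 1.94 ± 0.0408 in siKDM5C and 2.47 ± 0.0790 in control libraries. Both knockdown groups were below control without overlap in each ratio. In siSIRT6 the lower value went with less FOSL1, and in siKDM5C with more JUN.

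EGR1 had the largest change of the 8 tested members. It was at 1.18, 1.40 and 1.33 FPKM in siSIRT6, 4.76, 3.52 and 4.15 FPKM in siKDM5C and 4.90, 4.41 and 5.57 FPKM in control libraries. The siSIRT6 libraries were far below the rest, and the siKDM5C and control ranges overlapped. EGR1 (ENSG00000120738, chr5:138465490-138469315), whose CArG boxes are shown above, fell by 1.37 on the log2(FPKM + 1) scale after siSIRT6 (SE 0.10, adjusted p = 1.58e-05, limma), leaving 26.3% of the control mean. Adding 1 FPKM compresses the change of so low a gene, and limma-voom on recovered reads gave -1.92. After siKDM5C the difference was -0.22, with a 95% interval of -0.45 to 0.02 (adjusted p = 0.112, limma), and it passed when libraries were scaled to the FPKM outside mitochondrial DNA (-0.26, adjusted p = 0.047).

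ZFP36 (ENSG00000128016, chr19:39406813-39409412) was at 159, 154 and 156 FPKM in siSIRT6, 261, 260 and 279 FPKM in siKDM5C and 276, 288 and 310 FPKM in control libraries. Every siSIRT6 library was below every other library, and a single siKDM5C library lay within the control range. ZFP36 fell by 0.89 after siSIRT6 (SE 0.06, adjusted p = 7.36e-06, limma), to 53.7% of the control mean. After siKDM5C the difference was -0.13, with a 95% interval of -0.26 to 0.01 (adjusted p = 0.0988, limma), and it passed when scaled to the FPKM outside mitochondrial DNA (-0.18, adjusted p = 0.0218).

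IER2 (ENSG00000160888, chr19:13150415-13154908), a nuclear protein induced early by growth factors, was at 36.5, 38.0 and 40.4 FPKM in siSIRT6, 44.5, 39.2 and 45.8 FPKM in siKDM5C and 30.0, 28.9 and 34.8 FPKM in control libraries. All knockdown libraries were above all control libraries. IER2 rose by 0.29 after siSIRT6 (SE 0.09, adjusted p = 0.0214, limma) and by 0.46 after siKDM5C (SE 0.09, adjusted p = 0.0024, limma). The call after siSIRT6 was lost without control replicate 1 (0.26, adjusted p = 0.0701) or 2 (0.24, adjusted p = 0.0764) and without siSIRT6 replicate 2 (0.29, adjusted p = 0.0545) or 3 (0.25, adjusted p = 0.0769). An antisense gene, ENSG00000267598, overlaps 946 bases, 30.8% of IER2's exons. It was at 94.3, 98.6 and 104 FPKM in siSIRT6, 114, 106 and 123 FPKM in siKDM5C and 76.7, 72.9 and 88.0 FPKM in control libraries, with the same order of groups as IER2. The library kit keeps strand, but no source used here gives the strand setting of the counting, and the IER2 values are uncertain for that reason.

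**Figure D3:**
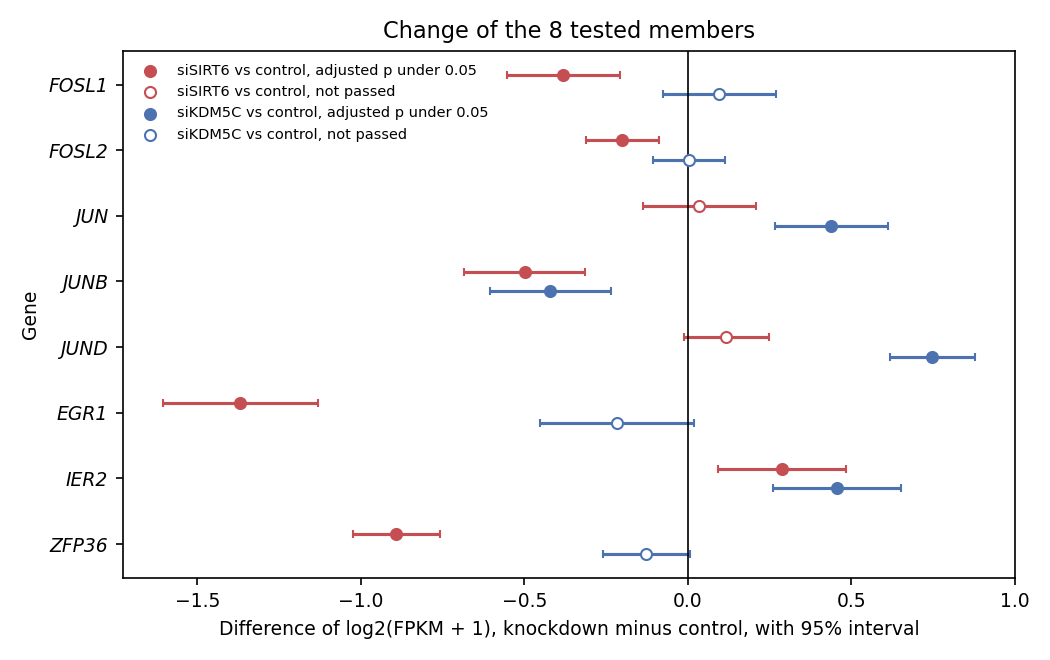
Difference of log2(FPKM + 1), knockdown minus control, for the 8 tested genes, with the siSIRT6 value above the siKDM5C value for each gene and bars for the 95% interval; filled points have an adjusted p under 0.05 and open points do not. EGR1 and ZFP36 are furthest to the left after siSIRT6, at -1.37 and -0.89, JUND is furthest to the right after siKDM5C, at 0.75, and JUNB is on the left in both.

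The knockdown groups were also compared with each other. The difference of means then uses no control library, but the filter and the spread behind each p-value come from all 9 libraries. In every comparison that spread is shared by the 3 groups, although replicates differed more within siKDM5C than within siSIRT6. Between 2 libraries of a group, the mean chi-square per gene of recovered reads was 5.92 to 9.40 in siKDM5C. It was 1.84 to 2.40 in siSIRT6 and 1.98 to 5.07 in control libraries. In that comparison 6 of the 8 tested members were lower in siSIRT6 than in siKDM5C, none was higher and 2 did not pass. Of all tested genes 39.9% were called, 21.3% lower and 18.6% higher. The median difference of the 8 was -0.44, beside -0.02 for all tested genes. EGR1 was lower, with a difference of -1.15 (adjusted p = 7.2e-05), ZFP36 of -0.76 (adjusted p = 3.1e-05), JUND of -0.63 (adjusted p = 7.62e-05), FOSL1 of -0.48 (adjusted p = 0.00147), JUN of -0.40 (adjusted p = 0.00339) and FOSL2 of -0.20 (adjusted p = 0.0107), all from limma. The differences of JUNB (-0.08, 95% interval -0.26 to 0.11, adjusted p = 0.473) and IER2 (-0.17, 95% interval -0.36 to 0.03, adjusted p = 0.157) did not pass. FOS and FOSB were lower in siSIRT6 than in siKDM5C in limma-voom on recovered reads, with differences of -1.07 (adjusted p = 0.00644) and -0.75 (adjusted p = 0.00352). Groups of 3 that did not overlap were seen for 7 of the 8 tested members between siSIRT6 and control, where 65.5% of all tested genes were apart, for 4 between siKDM5C and control, where 55.7% were, and for 6 between siSIRT6 and siKDM5C, where 51.7% were.

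Over the 9 libraries, profiles of log2(FPKM + 1) minus the control mean were closest between FOSL1 and FOSL2 among the members, with a Euclidean distance of 0.387, followed by JUN and IER2 at 0.447. EGR1 and IER2 were furthest apart, at 3.10. JUNB and IER2 passed the test in both comparisons with control. Among 11494 tested protein-coding genes, JUNB's profile was nearest to those of TUT1 at 0.131 and TMEM11 at 0.165, and IER2's to those of SCAF1 at 0.117 and RTL8B at 0.167.

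Features of 1 protein-coding transcript per gene, from GENCODE 29 and the principal one where marked, set some members apart from most genes. In that transcript JUN, JUNB, JUND and IER2 have a single exon, as do 1.86% of 10993 tested genes with an annotated 3′ UTR. The median of those genes is 9 exons. Over all its transcripts, IER2 has further exon sequence (3072 bases in all, beside 2934 in this transcript) that does not fill its gene span. The AU-rich pentamer ATTTA occurred 7.01 times per kb in the 3′ UTR of ZFP36, 6.20 in FOS, 4.00 in JUNB, 2.33 in JUN, 1.85 in FOSL2, 1.50 in FOSL1, 1.47 in JUND, 1.39 in FOSB and 0.810 in EGR1, and not at all in IER2. The median of the tested genes was 1.61 per kb. Of the members that fell after siSIRT6, ZFP36, JUNB and FOSL2 lay above that median and EGR1 and FOSL1 below, with FOSL2 and FOSL1 close to it. A link between the pentamer and the changes was not tested. The nonamer TTATTTATT, to which ZFP36 protein binds, was found in FOS, FOSL2 and ZFP36 and in 8.42% of the tested genes. The 25 bases around it are shown in DNA letters, 5′ to 3′ and with the nonamer in capitals, because ZFP36 mRNA carries the element that its own protein binds.
FOS: tttttaatTTATTTATTaagatgga
FOSL2: ttattttaTTATTTATTttaaatgt
ZFP36: tgacgactTTATTTATTctaatatg

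The genes around the members were counted on lists of their partners, regulators and targets. Beside every list stand the 50.8% of all tested genes called after siSIRT6 and the 51.5% called after siKDM5C, with all-gene median differences of -0.05 and -0.02. Earlier results of these data were known when the lists and the members were chosen. A share above the all-gene value may reflect that choice, which was not tested. The all-gene share also depends on the filter. Raised to 5 FPKM, it gave 56.8% called after siSIRT6 and 57.4% after siKDM5C, and the lists were not matched for level. Of 9 tested AP-1 partners of the basic leucine zipper class, 1 rose and 6 fell after siSIRT6, and 5 rose and 3 fell after siKDM5C, 77.8% and 88.9% of the list. BATF2 was lower in both (-0.91 and -0.82, adjusted p = 1.12e-05 and 2.07e-05, after siSIRT6 and siKDM5C), as was MAFG, a small MAF protein (-0.55 and -0.38, adjusted p = 0.0014 and 0.00982). ATF7, a relative of ATF2 that pairs with JUN, was higher in both (0.52 and 0.60, adjusted p = 5.71e-05 and 2.68e-05, limma). The list's median difference was -0.25 after siSIRT6 and 0.18 after siKDM5C.

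Of 24 other tested immediate early genes, 6 rose and 10 fell after siSIRT6, and 8 rose and 8 fell after siKDM5C. That was 66.7% of the list in each comparison, beside 50.8% and 51.5% of all tested genes, with medians of -0.15 after siSIRT6 and -0.07 after siKDM5C. DUSP2, which fell in both, and BTG2, which fell after siSIRT6, reached 1 FPKM in enough libraries only with control libraries counted. IER5L, at 6.97 ± 0.265 FPKM in siSIRT6 and 3.07 ± 0.195 FPKM in control libraries, rose by 0.97 (adjusted p = 6.27e-06, limma), and PLK2, a stress-induced kinase, by 0.99 (adjusted p = 9.57e-06, limma). GADD45B, a stress-induced growth arrest gene, fell by 0.93 after siSIRT6 (adjusted p = 3.29e-05, limma). After siKDM5C, CCN1, a secreted matrix protein, rose by 1.00 (adjusted p = 8.73e-06, limma), at 375 ± 28.4 FPKM in siKDM5C and 187 ± 9.70 FPKM in control libraries. RHOB, a small GTPase, fell by 0.60 after siSIRT6 (adjusted p = 6.49e-05, limma) and by 0.63 after siKDM5C (adjusted p = 4.93e-05, limma).

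Of 22 tested regulators of immediate early genes, 7 rose and 5 fell after siSIRT6, and 8 rose and 5 fell after siKDM5C. The shares called, 54.5% and 59.1%, were near the 50.8% and 51.5% of all tested genes, and the medians were 0.03 and 0.05. MAP2K1, the kinase MEK1 that activates ERK, was at 39.4 ± 0.648 FPKM in siSIRT6, 36.1 ± 1.42 FPKM in siKDM5C and 59.1 ± 1.06 FPKM in control libraries (SD, n = 3 each). It fell by 0.57 after siSIRT6 (adjusted p = 2.28e-05, limma) and by 0.70 after siKDM5C (adjusted p = 8.48e-06, limma). Other kinases on the list rose. MAPK3, the kinase ERK1, rose by 0.61 after siSIRT6 (adjusted p = 0.000231, limma). RPS6KA4 rose by 0.72 after siSIRT6 and by 0.84 after siKDM5C (adjusted p = 0.00024 and 9.92e-05, limma). SRF, the factor that binds CArG boxes, rose by 0.50 after siKDM5C (adjusted p = 0.00035, limma), and was at 14.3 ± 0.321 FPKM in siSIRT6 and 14.6 ± 0.679 FPKM in control libraries. MRTFA, its coactivator, rose by 0.58 after siSIRT6 and by 0.49 after siKDM5C (adjusted p = 0.000166 and 0.000384, limma). Of 6 tested genes of AP-1 protein turnover, 1 rose and 1 fell after siSIRT6 and 1 rose and 2 fell after siKDM5C. These shares, 33.3% and 50.0%, were not above those of all tested genes, and the medians were -0.03 and -0.07. GSK3B, a kinase that marks JUN for degradation, rose after siSIRT6 (0.60, adjusted p = 0.000134, limma).

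Known targets of AP-1 moved in both directions. Of 18 tested, 6 rose and 9 fell after siSIRT6, and 10 rose and 8 fell after siKDM5C. That was 83.3% and 100% of the list, beside 50.8% and 51.5% of all tested genes, with medians of -0.31 and 0.23 beside -0.05 and -0.02. MMP9, among the falls in both, reached 1 FPKM only in control libraries (1.22, 1.57 and 1.81 FPKM) and was tested only through that group. Of the 28 listed targets in the deposited tables, only these 18 passed the filter. CCND1, cyclin D1, was at 48.7 ± 0.187 FPKM in siSIRT6, 34.8 ± 1.25 FPKM in siKDM5C and 205 ± 15.5 FPKM in control libraries. It fell by 2.04 after siSIRT6 (adjusted p = 2.78e-07, limma) and by 2.52 after siKDM5C (adjusted p = 6.34e-08, limma). PLAU, urokinase, fell after siSIRT6 and siKDM5C, with differences of -1.47 and -1.35 (adjusted p = 1.04e-06 and 1.33e-06, limma). AREG, an EGF receptor ligand, rose by 1.63 and 2.43 (adjusted p = 4.64e-07 and 6.34e-08, limma), and the collagenase MMP1 by 1.13 and 1.78 (adjusted p = 5.69e-06 and 6.13e-07, limma), after siSIRT6 and siKDM5C.

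Of 12 tested mRNAs that ZFP36 is known to destabilise, 1 rose and 7 fell after siSIRT6, the group in which ZFP36 itself was lower, and 3 rose and 6 fell after siKDM5C. That was 66.7% and 75.0% of the list, beside 50.8% and 51.5% of all tested genes. Whether the lower ZFP36 bore on the levels of these mRNAs was not tested. CCND1, CXCL8, LIF, PLAUR and VEGFA are also on the AP-1 target list: these 5 are 41.7% of the tested ZFP36 targets and 27.8% of the tested AP-1 targets, and 4 of them are among the 7 that fell after siSIRT6. The counts of both lists therefore rest in part on the same genes. CSF2, a cytokine, was at 0.881 ± 0.258 FPKM in siSIRT6, 1.12 ± 0.297 FPKM in siKDM5C and 8.65 ± 1.56 FPKM in control libraries, and its differences were -2.36 and -2.18 (adjusted p = 7.9e-06 and 1.23e-05, limma). CXCL1, a chemokine, rose by 1.05 after siSIRT6 (adjusted p = 2.46e-05, limma). The list's median difference was -0.83 after siSIRT6 and -0.34 after siKDM5C, beside -0.05 and -0.02 for all tested genes.

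**Figure D4:**
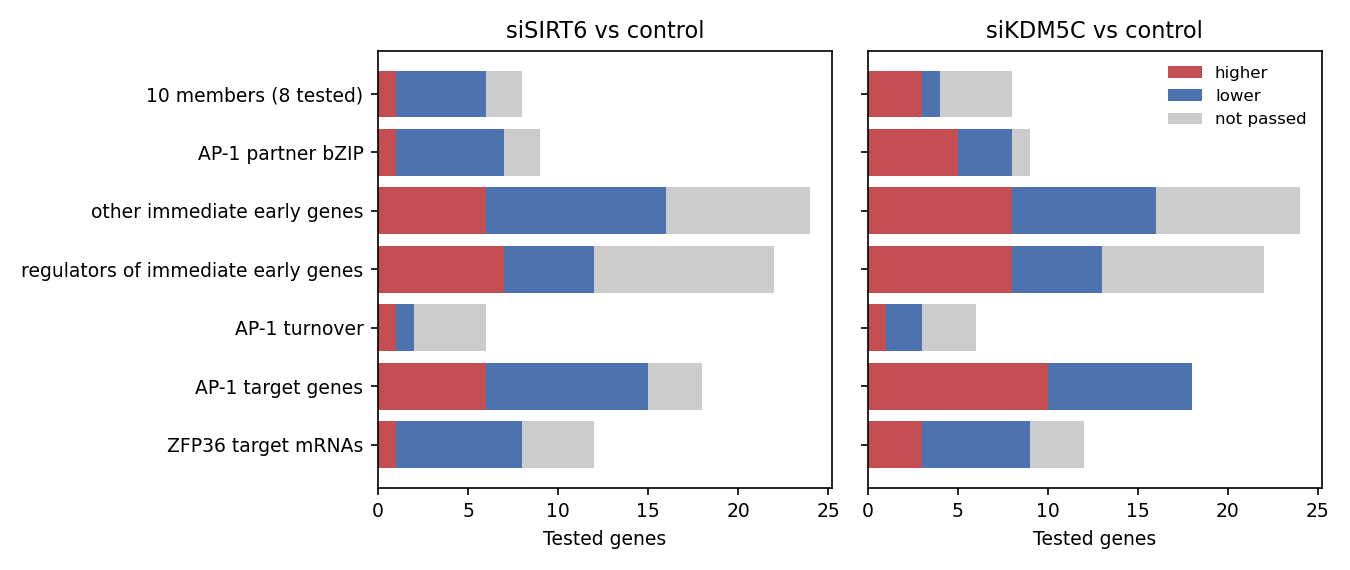
Number of tested genes on each list that rose (red), fell (blue) or did not pass the test (grey), on an axis of gene counts, with siSIRT6 against control on the left and siKDM5C against control on the right. Of the members 5 fell and 1 rose after siSIRT6, and 1 fell and 3 rose after siKDM5C, and of the AP-1 targets 6 rose after siSIRT6 and 10 after siKDM5C.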

How the data were processed

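RNA of 9 PANC-1 libraries was prepared with a stranded mRNA kit, per the labels' protocols. The authors deposited 1 table per library with FPKM per gene. The submitters' processing notes name Trimmomatic, HISAT2, Cufflinks, HTSeq and the hg38 build; no source used here gives versions, the role of each tool, the annotation or the strand setting.

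Gene symbols and models came from GENCODE release 29 and the RefSeq tables. Reads were worked back from the smallest FPKM steps of each library: 96.3% of genes gave whole reads (tolerance 0.01 read) at some whole length, and 59.1% at the union exon length. A count of 3 reads of a 1 kb gene are worth 0.111 to 0.165 FPKM.

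Log2(FPKM + 1) was fitted with limma 3.58.1 (R 4.3.3; trended variance, 1 term per group, all 9 libraries, 6 residual degrees of freedom), on genes reaching 1 FPKM in 3 or more libraries. P-values are two-sided and Benjamini-Hochberg adjusted over all 16135 genes, with a threshold of 0.05. The code was tested on simulated data. Alternatives varied the pseudocount, filter, scaling, trend, replicate block, samples fitted and libraries left out; limma-voom on recovered reads (at least 10 reads in at least 3 libraries) was chosen after seeing the data.

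Beyond the targets and the 10 members, the genes named are those with the smallest adjusted p on each list (up to 4 per comparison, of which some are printed) and the 2 nearest profiles of members called in both comparisons with control. Genes named for the filter, for being on 2 lists, as cell type markers or for overlapping a member's exons come in addition. The members and lists were chosen with earlier results of these data known.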

Additional observations from a re-analysis of the deposited data

How the results depend on the processing

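Requiring at least 5 FPKM left 9446 genes, of which 5367 were called in siSIRT6 against control and 5418 in siKDM5C against control; fewer genes were tested, and EGR1 was not among them. Limma-voom called 9806, 9815 and 8118 of 19461 genes for siSIRT6 over control, siKDM5C over control and the knockdowns against each other.

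Among the members, JUND after siSIRT6 passed with median-of-ratios scaling (0.159, adjusted p = 0.0452). EGR1 and ZFP36 after siKDM5C passed when scaled outside mitochondrial DNA (-0.259, adjusted p = 0.047, and -0.18, adjusted p = 0.0218), and FOSL2 there changed sign to -0.0446 (adjusted p = 0.454). The cause was not tested.

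Leaving out 1 library at a time, IER2 after siSIRT6 ranged from 0.237 to 0.368 and lost its call without control replicate 1 or 2 or siSIRT6 replicate 2 or 3. JUN after siSIRT6 ranged from -0.001 to 0.0834, FOSL2 after siKDM5C from -0.0205 to 0.0293, and EGR1 after siKDM5C from -0.301 to -0.126, which passed without siKDM5C replicate 1 (adjusted p = 0.0422). FOSL1 after siKDM5C ranged from 0.0544 to 0.169 (0.0435 when scaled outside mitochondrial DNA), ZFP36 after siKDM5C from -0.166 to -0.0814, and JUNB between siSIRT6 and siKDM5C from -0.13 to -0.0455, all without passing in these fits of 1 library fewer. Counts of called genes ranged from 6768 to 8787, 6977 to 8401 and 4883 to 6945, in the same order. No member's call between siSIRT6 and siKDM5C changed under any alternative run.

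With the replicate number as a block, 8130, 8245 and 6386 genes were called in the same 3 comparisons, and no member's call changed. Same-numbered libraries did not deviate together in every pair (r from -0.229 to 0.252), so the numbers were not taken as pairing. Some libraries of different number deviated together more strongly. The r was 0.426 for siKDM5C replicate 1 with control replicate 3, and -0.353 for siKDM5C replicate 2 with the same control library. What lay behind this was not tested, and the main fit has no term for it. Depth limits FOS and FOSB most, at 14 to 100 reads a library.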
